A study of Leucoraja erinaceus with 6 samples.

Results

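The Egr, Fos and Jun immediate early genes of the little skate (Leucoraja erinacea) were followed in dorsal root ganglia (DRG) and spinal cord of embryos. They were taken as the rows of the count table whose names match the Egr1 to Egr4, Fos, Fosb, Fosl, Jun, Junb, Jund, Npas4 and Atf3 symbols, with or without a paralogue suffix. The pattern found 7 of 22087 named rows: egr2b, egr3, jun, junba, fosb, fosl2 and atf3. No other row name matched the pattern, so genes such as egr1 and fos were not analysed here. Rows without a symbol could not be assigned to these families.

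DRG are the clusters of sensory neurons and glia that lie beside the cord. Both tissues came from untreated wild-type embryos at stage 32, and the labels describe each as a mixture of neurons and glia. Each tissue had 3 bulk RNA-seq libraries made from polyA-selected RNA, and each library pooled tissue of 3 to 4 embryos. Pools 815, 816 and 818 gave replicates 1, 2 and 3 of both tissues. A bulk library cannot tell fewer cells of a type from less RNA per cell.

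Immediate early genes code for transcription factors that many vertebrate cells switch on quickly and briefly after growth factors, neuronal activity or stress, without first making new protein. The EGR proteins bind DNA through zinc fingers. FOS and JUN proteins pair through leucine zippers to form the factor AP-1, and ATF3 pairs with JUN proteins. Some of them also have lasting roles: in mouse, Egr2 drives myelination by Schwann cells and Egr3 is needed for muscle spindles, and in rodents Jun and Atf3 rise in sensory neurons after nerve injury.

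The libraries held 24342810 to 28782887 counts in named genes. Mitochondrial protein-coding genes took 24.3% to 35.7% of them in DRG and 5.39% to 6.88% in spinal cord. Levels are in CPM, counts scaled to one common library total, after TMM. That method gives each library a scale factor, on the assumption that most genes do not differ between libraries. As 55.9% of tested genes differed between the tissues, the assumption is not assured here. When plain library sizes were used, the median change over the 16112 tested genes went from -0.04 to -0.99 on the log2 scale, and the share of calls higher in DRG moved from 49.7% to 15.5%, so all changes are relative to the TMM scale. The tissue labels matched the marker genes: 9 of 10 sensory neuron markers were higher in DRG (5 on plain library sizes) and 0 were lower, while all 7 spinal neuron markers were lower in DRG. Counts on this scale are not divided by transcript length, so levels of different genes are not compared.

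Of the 7 genes, 4 were higher in DRG (egr2b, atf3, junba and jun), 1 was lower in DRG (fosb), and 2 did not pass the test (egr3 and fosl2). A gene passed at a Benjamini-Hochberg adjusted p under 0.05 over all genes in edgeR's quasi-likelihood test. The tissues differed widely: 55.9% of all tested genes passed, with 27.8% higher and 28.1% lower in DRG, so 5 of 7 (71.4%) is not far from the share of genes in general. On the log2 scale, the median change from spinal cord to DRG was 1.01 for the 7 genes and -0.04 for all genes. The ranges of the tissues did not overlap for 5 of the 7 genes, against 65.0% of all tested genes. All 7 genes passed the filter on low counts, but fosb and fosl2 did so through their spinal cord counts alone. The atf3 gene passed through its DRG counts, where it is high, since only 2 of its 3 spinal cord libraries were over the filter.

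**Figure D1:**
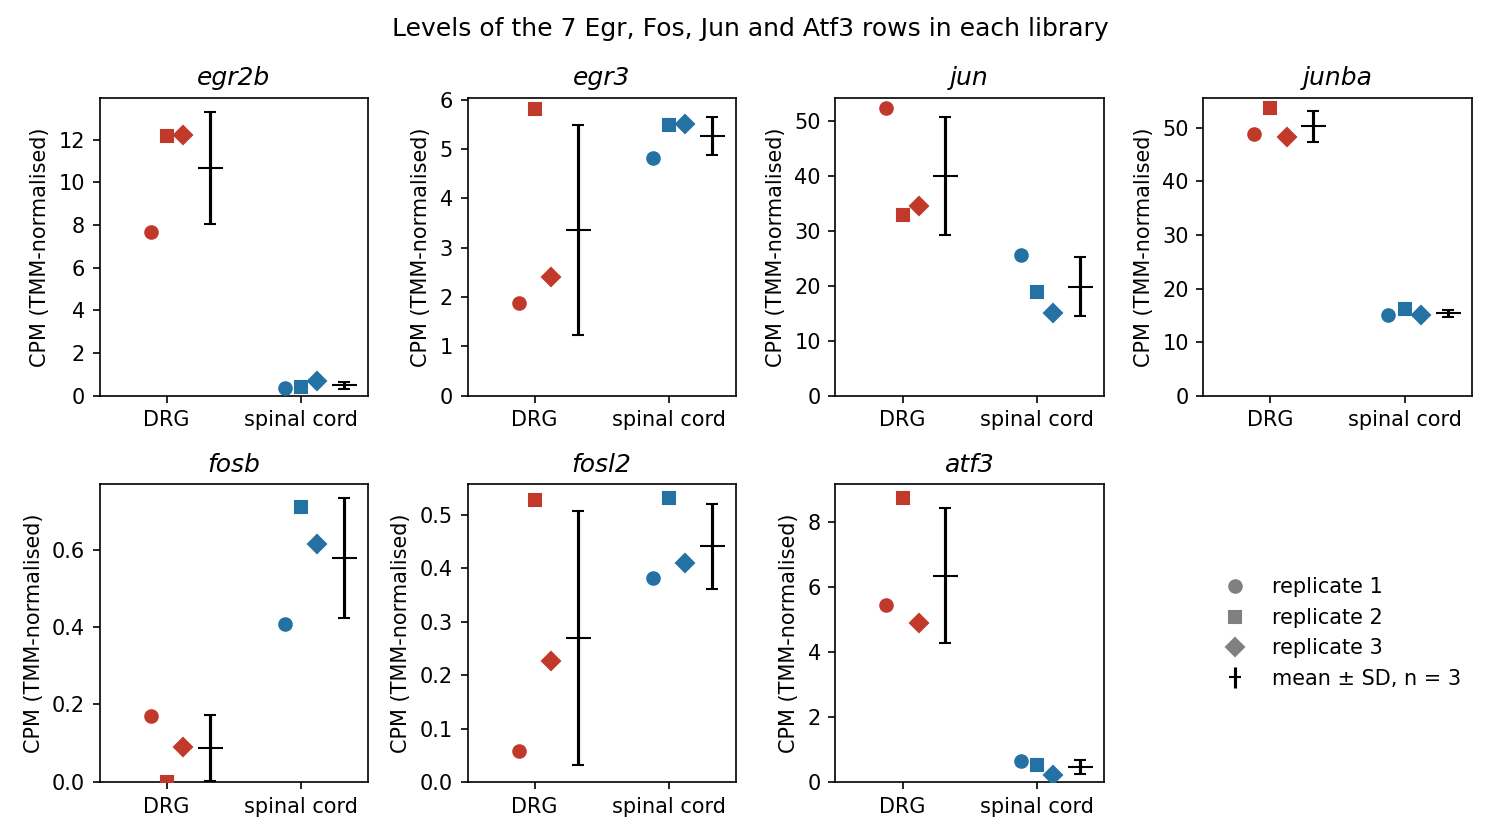
Level of each gene in each library, in TMM-normalised CPM on linear axes that start at 0 and differ between panels; symbols mark replicates, and the black bar is the mean ± SD (n = 3). In egr2b, atf3, junba and jun all 3 DRG libraries lie above all spinal cord libraries, in fosb all lie below, while DRG replicate 2 lies above all spinal cord libraries in egr3 and among them in fosl2.

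The EGR genes went separate ways. Expression of egr2b was 7.66, 12.2 and 12.2 CPM in the DRG libraries of replicates 1, 2 and 3, and 0.356, 0.414 and 0.666 CPM in those of spinal cord. Every DRG library was thus far above every spinal cord library. DRG averaged 10.7 ± 2.62 CPM against 0.479 ± 0.164 CPM (SD, n = 3 each), 22.3 times as much, and the log2 fold change of 4.47 ± 0.37 SE had an edgeR adjusted p of 4.49e-05. This change exceeded that of 99.0% of all tested genes. In spinal cord the values rest on 14, 14 and 26 counts, which is above the floor of 3 counts used here to call a gene undetected. The log2 fold change of egr2b was 3.52 with library sizes alone.

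Expression of egr3 was 1.89, 5.80 and 2.40 CPM in the DRG libraries, in the same order, and 4.81, 5.48 and 5.50 CPM in spinal cord. DRG replicates 1 and 3 were below every spinal cord library, and DRG replicate 2 was above all of them. DRG averaged 3.36 ± 2.13 CPM against 5.26 ± 0.393 CPM (SD, n = 3 each), and the log2 fold change of -0.65 did not pass (95% interval -1.64 to 0.34, edgeR adjusted p = 0.23). The coefficient of variation of egr3 was 63.4% among DRG libraries and 7.46% among spinal cord libraries, where the median gene had 24.3% and 12.7%. Without DRG replicate 2, egr3 was lower in DRG with a log2 fold change of -1.30 (edgeR adjusted p = 0.00878), and it was also lower with library sizes alone (-1.64, adjusted p = 0.00702).

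DRG replicate 2 was also the highest DRG library for some markers of other cell types. The muscle list matched 6 of 12 symbols, and its summed level was 41.9 CPM in that library against 20.3 and 12.8 CPM in DRG replicates 1 and 3 and 8.83 to 13.1 CPM in spinal cord. Its muscle regulators myod1, myog, myf5 and myf6 stayed below the filter, and myod1 had no count in spinal cord. The blood and microglia list matched 4 of 10 symbols, and its summed level was 149 CPM in DRG replicate 2 against 127 and 72.1 CPM in the other DRG libraries. That peak was the leukocyte gene ptprc, at 67.0 CPM there against 11.7 and 13.5 CPM: without it the list summed to 115, 81.9 and 58.6 CPM in DRG replicates 1, 2 and 3. The muscle sum was mostly the sarcomere gene neb, without which it was 7.21, 10.4 and 4.43 CPM. The connective tissue and meningeal list summed to 2354, 3466 and 1420 CPM in DRG replicates 1, 2 and 3, and to 121 to 156 CPM in spinal cord. Without its collagen gene col1a2 the DRG sums were 338, 413 and 242 CPM. The endothelial list was instead highest in DRG replicate 1, at 66.1, 56.5 and 40.5 CPM. The Schwann cell and satellite glia list was highest in DRG replicate 2, at 6097, 10523 and 5002 CPM in DRG replicates 1, 2 and 3. The sensory neuron list was lowest there, at 3530, 3116 and 3443 CPM. The part of these cell types in the egr3 level was not tested.

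Because both EGR genes were counted in the same libraries, their ratio needs no scaling between libraries. The egr2b count divided by the egr3 count was 4.06, 2.10 and 5.09 in DRG replicates 1, 2 and 3, and 0.0741, 0.0757 and 0.121 in spinal cord. The ratio was 40.0-fold higher in DRG (geometric means; exact permutation p = 0.1, two-sided, which is the lowest value open to 3 against 3 libraries; 0.133 after adjustment over 4 ratios). Such a ratio shows that the genes differ unequally, not which of them moved. The permutation test exchanged all 6 libraries freely and did not use their pairing by pool.

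The JUN genes were both higher in DRG on the TMM scale. Expression of junba, a skate row named after the zebrafish paralogue of JunB, was 49.0, 53.6 and 48.4 CPM in DRG and 15.0, 16.1 and 15.0 CPM in spinal cord. The libraries of each tissue lay close together, with a coefficient of variation of 5.76% in DRG and 4.27% in spinal cord. The log2 fold change was 1.71 ± 0.13 SE (edgeR adjusted p = 2.55e-05), a 3.27-fold difference between means of 50.3 ± 2.90 and 15.4 ± 0.657 CPM (SD, n = 3 each). It was 0.75 with library sizes alone (adjusted p = 0.00356).

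Expression of jun, the gene of the AP-1 subunit c-Jun, was 52.2, 32.8 and 34.5 CPM in DRG and 25.5, 18.8 and 15.0 CPM in spinal cord. Replicate 1, from pool 815, was the highest library in both tissues. DRG averaged 39.9 ± 10.7 CPM against 19.8 ± 5.35 CPM (SD, n = 3 each), 2.02 times as much, with a log2 fold change of 1.01 ± 0.25 SE (edgeR adjusted p = 0.00965). This call rests on the scaling: with library sizes alone the log2 fold change was 0.050 (adjusted p = 0.864), which is 1.04 above the median of all genes on that scale. The summed raw counts were 2237 in DRG and 2223 in spinal cord.

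The junba count divided by the jun count was 0.938, 1.63 and 1.40 in DRG, against 0.588, 0.857 and 1.00 in spinal cord. It was higher in DRG in each of the 3 pools, but the ranges overlapped, since DRG replicate 1 was below spinal cord replicate 3 (1.62-fold higher in DRG, two-sided exact permutation p = 0.2, 0.2 adjusted over 4 ratios).

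**Figure D2:**
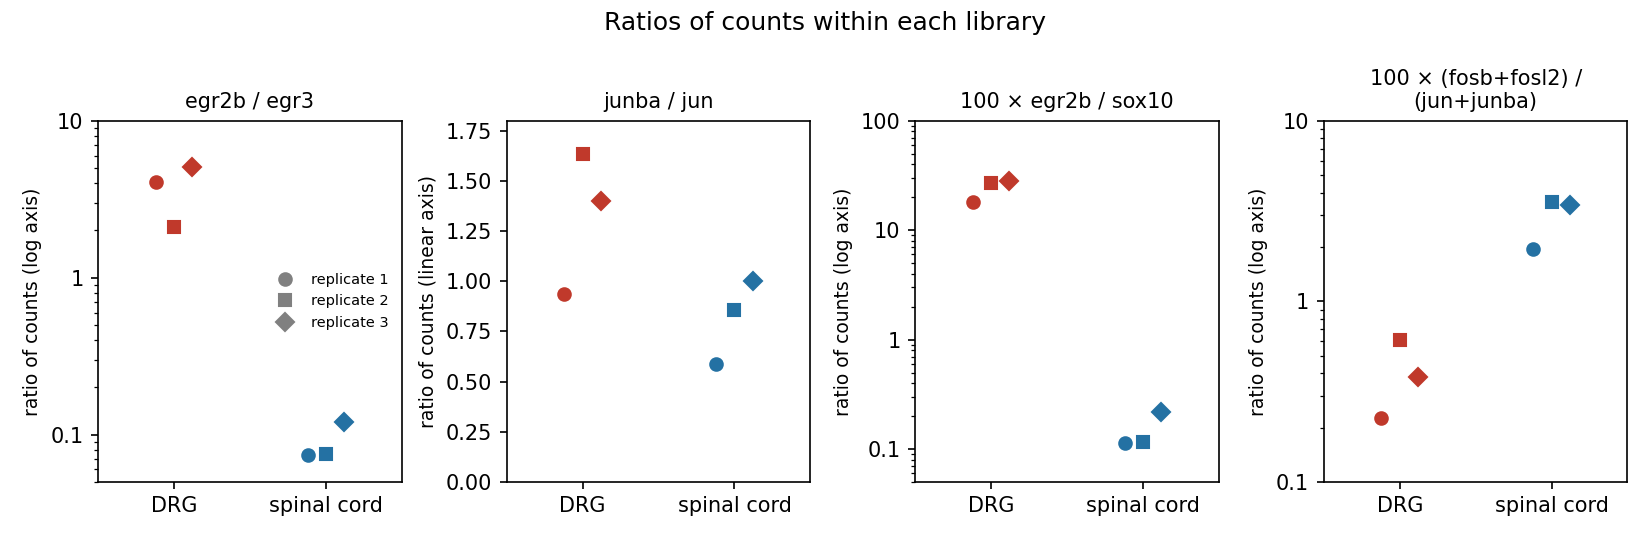
Ratios of raw counts within each library, with replicates as symbols; 3 panels have a log axis and the junba panel a linear axis from 0. The tissues stand apart for egr2b over egr3, for egr2b over sox10 and for fosb and fosl2 over jun and junba, and overlap for junba over jun.

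The FOS rows fosb and fosl2 had few counts. For fosb, a FOS protein gene induced by neuronal activity in rodents, 3, 0 and 2 counts were found in DRG replicates 1, 2 and 3, and 16, 24 and 24 in spinal cord. Every DRG count was at or below the floor of 3 counts used here, so the size of the difference is uncertain. These are 0.172, 0 and 0.0904 CPM in DRG and 0.407, 0.710 and 0.614 CPM in spinal cord, without overlap. Summed over libraries, 64 counts in spinal cord against 5 in DRG gave a ratio of 6.47 (95% exact interval 2.63 to 20.6, which covers counting error alone, as the reads carry no molecular identifiers). The log2 fold change was -2.65 ± 0.81 SE (edgeR adjusted p = 0.0235). The call was lost with the pool number as a replicate block (-2.69, edgeR adjusted p = 0.069) and in the fits without DRG replicate 3 (adjusted p = 0.0585), spinal cord replicate 2 (0.0848) or spinal cord replicate 3 (0.0744).

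For fosl2, which codes for the FOS-related protein Fra-2, 1, 9 and 5 counts were found in DRG and 15, 18 and 16 in spinal cord. On the CPM scale this was 0.0572, 0.528 and 0.226 CPM in DRG against 0.382, 0.533 and 0.410 CPM in spinal cord, and DRG replicate 2 lay among the spinal cord libraries. No difference was detectable at this depth (log2 fold change -0.71, 95% interval -2.36 to 0.94, edgeR adjusted p = 0.429).

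Together, fosb and fosl2 had 0.226, 0.610 and 0.382 counts per 100 counts of jun and junba in DRG, and 1.95, 3.56 and 3.42 in spinal cord. The counts of fosb and fosl2 relative to those of jun and junba were 7.66-fold higher in spinal cord, with no overlap (exact permutation p = 0.1, two-sided, again the lowest possible, and 0.133 adjusted over 4 ratios). The ratio covers these rows and not the whole FOS and JUN families, as rows without a symbol could not be assigned. The DRG ratios rest on 5 fosb and 15 fosl2 counts summed over libraries, and both genes passed the filter through spinal cord alone. Since jun and junba were higher in DRG, the ratio adds no separate evidence on fosb and fosl2.

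Expression of atf3, a stress-induced member of the ATF family, was 5.43, 8.74 and 4.88 CPM in DRG and 0.636, 0.533 and 0.205 CPM in spinal cord. All DRG libraries were above all spinal cord libraries, whose values rest on 25, 18 and 8 counts. DRG averaged 6.35 ± 2.08 CPM against 0.458 ± 0.225 CPM (SD, n = 3 each), 13.9 times as much, with a log2 fold change of 3.78 ± 0.50 SE (edgeR adjusted p = 0.000396). This change exceeded that of 98.3% of tested genes, and was 2.81 with library sizes alone.

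The matched genes on a list of heat shock and chaperone proteins moved in the same direction as egr2b, atf3, junba and jun. They did not move with fosb, which was lower in DRG, or with egr3 and fosl2, which did not pass. The list matched 6 of 12 symbols, and hspa1a, dnajb1 and hmox1 were among those not matched. All 6 tested genes were higher in DRG, against 27.8% of all tested genes, with a median log2 fold change of 1.53. With library sizes alone 3 of 6 were higher. Their summed level was 4899 to 5990 CPM in DRG and 1913 to 2310 CPM in spinal cord. Most of the DRG sum was hsp90ab1. Without it the list summed to 2101, 1978 and 1372 CPM in DRG replicates 1, 2 and 3, and to 460 to 642 CPM in spinal cord. The small heat shock protein gene hspb1 had a log2 fold change of 3.43 ± 0.37 SE (edgeR adjusted p = 0.000138). Whether dissection stress or another cause moves the genes of this list and the immediate early genes was not tested.

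**Figure D3:**
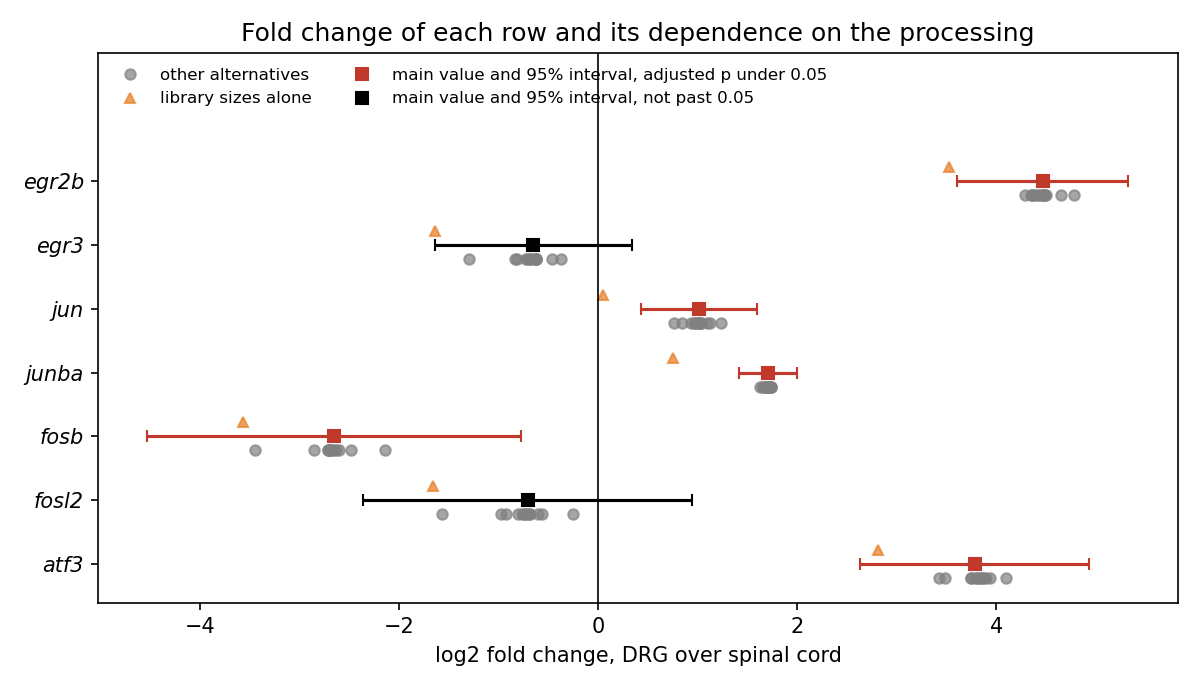
Log2 fold change of each gene, DRG over spinal cord; squares with bars are the edgeR value and its 95% interval (red where the adjusted p is under 0.05), grey circles are the alternatives and leave-one-out fits, and orange triangles are library sizes alone. Every gene keeps its direction where it could be tested; jun moves to 0.050 and egr3 to -1.64 with library sizes alone.

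No library was high for all genes. Of the 7 genes, DRG replicate 2 was the highest DRG library for 4 (egr3, junba, fosl2 and atf3) and the lowest for 2 (jun and fosb). Spinal cord replicate 1 was the lowest cord library for 4 genes (egr2b, egr3, fosb and fosl2) and the highest for 2 (jun and atf3).

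The genes most like egr2b and egr3 across the 6 libraries were found by the root mean square difference of mean-centred log2 CPM, among genes with a symbol and at least 10 CPM in the higher tissue. For egr2b these were pmp22b, isl2a and dusp28, at 0.26, 0.26 and 0.30 log2 units among 6468 genes. For egr3 they were atp2a3, mcm7 and itpr2, at 0.14, 0.16 and 0.18 log2 units among 6469 genes. Being chosen for their likeness to egr3, these genes also had a DRG replicate 2 far above the other DRG libraries. For atp2a3 the level was 33.3 CPM there, against 11.7 and 10.9 CPM in DRG replicates 1 and 3 and 28.2 to 29.2 CPM in spinal cord. With Pearson's r as the measure, only 1 of the 6 genes (mcm7) remained. The points share their library and scaling, and r was above 0.9 for 1805 genes with egr2b and for 56 with egr3.

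Most genes on the list of Egr2 and the Schwann cell myelination programme were lower in DRG, unlike egr2b. The list mixes myelin genes with genes of regulators, which need not move in the same direction as Egr2. Of 18 tested genes of that list other than egr2b, 3 were higher in DRG, 13 were lower and 2 did not pass, with a median log2 fold change of -1.51; of all tested genes, 27.8% were higher and 28.1% lower. The higher ones were pmp22b (peripheral myelin protein), adgrg6 (a receptor needed for Schwann cell myelination in mouse and zebrafish) and cnp (a myelin enzyme), and only pmp22b remained higher with library sizes alone. Expression of pmp22b was 884 to 1024 CPM in DRG and 52.5 to 79.0 CPM in spinal cord (log2 fold change 3.93 ± 0.22 SE, edgeR adjusted p = 6.7e-06).

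Lower in DRG were the myelin gene mpz (-3.57), the glial factor gene sox10 (-2.91) and myrf (-6.56), which codes for a factor of central myelination, all with an edgeR adjusted p at or below 9.39e-05. Of these, sox10 is not specific to Schwann cells and myrf is not a Schwann cell factor, since oligodendrocytes of the cord express both in other vertebrates. Nor was mpz particular to the ganglia here, at 26719 to 35534 CPM in spinal cord and 1903 to 3944 CPM in DRG. For pou3f1, which acts before Egr2 in mouse Schwann cells, the levels were 4.80, 6.68 and 5.56 CPM in DRG and 8.48, 7.49 and 8.01 CPM in spinal cord (log2 fold change -0.49, adjusted p = 0.0938). It passed, with a log2 fold change of -0.63, without DRG replicate 2, and with library sizes alone it was -1.45.

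The list of Schwann cell and satellite glia markers matched 8 of 16 symbols, and all 8 had counts in both tissues. Of these, s100b and foxd3 were higher in DRG, 5 were lower and fabp7b did not pass. Of all tested genes, 27.8% were higher and 28.1% lower. The summed level of the 8 markers was 5002 to 10523 CPM in DRG and 30344 to 38732 CPM in spinal cord. This difference was carried by mpz, without which the other 7 summed to 4194, 6579 and 2916 CPM in DRG and 3625, 3199 and 3546 CPM in spinal cord, with overlap. Relative to sox10, egr2b had 18.2, 27.0 and 28.2 counts per 100 sox10 counts in DRG and 0.112, 0.117 and 0.217 in spinal cord, with no overlap (170-fold higher in DRG; exact permutation p = 0.1, two-sided, again the lowest possible; 0.133 adjusted over 4 ratios). Since sox10 itself was lower in DRG (mean 43.5 against 326 CPM), this ratio exceeds the 22.3-fold difference of egr2b alone. No ratio to s100b or foxd3, which were higher in DRG (6.43-fold and 3.75-fold), was taken. The part of glial number in the egr2b level was not tested.

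Genes linked to Egr3 in proprioceptors and muscle spindles went both ways. Of 7 tested genes of that list other than egr3, 3 were higher in DRG (pou4f3, runx3 and nrg1), 2 were lower (etv1 and erbb2) and 2 did not pass. Of all tested genes, 27.8% were higher and 28.1% lower. On plain library sizes 2 of the 7 were higher and 4 lower. The proprioceptor factor gene runx3 was at 17.3, 39.8 and 24.3 CPM in DRG, highest in replicate 2, and at 1.60 to 1.64 CPM in spinal cord (log2 fold change 4.06 ± 0.33 SE, edgeR adjusted p = 4.05e-05). The opposite direction held for etv1, at 5.20, 7.74 and 4.84 CPM in DRG and 56.1, 49.5 and 44.2 CPM in spinal cord (-3.08 ± 0.22 SE, edgeR adjusted p = 2.07e-05). The call of nrg1 was lost with library sizes alone, and that of erbb2 without spinal cord replicate 2 (adjusted p = 0.0566).

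The wider immediate early gene pathway was described with 6 lists, which held 60 tested genes besides the 7. The lists were matched in part: 8 of 17 symbols of upstream factors, 10 of 22 of kinases and 9 of 14 of feedback inhibitors. For other immediate early genes 21 of 47 were matched, for leucine zipper partners 11 of 21, and for EGR corepressors and partners 2 of 5. Of the 60 genes, 14 were higher in DRG, 24 were lower and 22 did not pass, so 63.3% passed, near the 55.9% of all tested genes, and the median log2 fold change was -0.07. With library sizes alone 8 were higher and 33 lower.

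The matched upstream factors were lower in DRG or did not pass: 6 of 8 were lower and 0 were higher, with a median of -0.88. Of all tested genes, 28.1% were lower and 27.8% higher. Leaving out 1 library gave 3 to 6 lower genes, with 3 without DRG replicate 1, spinal cord replicate 2 or spinal cord replicate 3. Among them, srfb, for serum response factor, which switches on Fos and Egr genes in mammalian cells, was at 7.32, 9.32 and 7.55 CPM in DRG and 11.5, 13.2 and 13.6 CPM in spinal cord (log2 fold change -0.66 ± 0.19 SE, edgeR adjusted p = 0.0181). The call of srfb was lost in 3 of the 6 fits that left out 1 library (adjusted p = 0.0506 without DRG replicate 1, 0.0695 without spinal cord replicate 2 and 0.0726 without spinal cord replicate 3). Its coactivator gene mrtfba was lower by -1.80 ± 0.16 SE on the log2 scale (adjusted p = 6.37e-05).

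Kinases went both ways, with 5 of 10 higher and 4 lower in DRG, against 27.8% and 28.1% of all tested genes. On plain library sizes 1 kinase was higher and 4 were lower. Leaving out 1 library gave 3 to 5 higher (3 without DRG replicate 3, spinal cord replicate 2 or spinal cord replicate 3) and 2 to 4 lower (2 without DRG replicate 1 or spinal cord replicate 3). The MAP kinase pathway gene raf1b rose most in DRG (log2 fold change 2.01 ± 0.20 SE, edgeR adjusted p = 9.5e-05). The MSK1 gene rps6ka5, a kinase of CREB and histone H3, was lower by -1.52 ± 0.25 SE (adjusted p = 0.00125).

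Among feedback inhibitors of these kinases, 2 of 9 were higher and 6 lower in DRG, against 27.8% and 28.1% of all tested genes. Leaving out 1 library gave 3 to 6 lower inhibitors (3 without spinal cord replicate 3). The higher ones were the MAP kinase phosphatase genes dusp5 and dusp1, themselves immediate early genes in mammals. Expression of dusp5 was 22.7, 24.0 and 24.5 CPM in DRG and 5.01, 4.14 and 4.74 CPM in spinal cord (log2 fold change 2.36 ± 0.16 SE, edgeR adjusted p = 2.03e-05). The opposite held for dusp10, a phosphatase of the JNK and p38 kinases, at 2.23, 4.16 and 2.26 CPM in DRG and 23.5, 20.0 and 25.8 CPM in spinal cord (-3.01 ± 0.28 SE, adjusted p = 7.91e-05).

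Of other immediate early genes, 5 of 21 were higher, 6 lower and 10 not past the threshold. Thus 52.4% passed, near the 55.9% of all tested genes (27.8% higher and 28.1% lower). This list had 8 higher and 6 lower without DRG replicate 3, and 3 higher and 9 lower on plain library sizes. The zinc finger gene klf6a was at 70.6 to 76.1 CPM in DRG and 29.2 to 31.5 CPM in spinal cord (log2 fold change 1.27 ± 0.12 SE), a call lost with library sizes alone. The nuclear receptor gene nr4a2a, induced by neuronal activity in mammals, was at 3.26, 4.10 and 2.40 CPM in DRG and 13.9, 11.5 and 13.4 CPM in spinal cord (-1.99 ± 0.26 SE, edgeR adjusted p = 0.000351). The kinase gene plk2b was lower by -1.48 ± 0.24 SE (adjusted p = 0.00112).

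Of 11 possible leucine zipper partners of FOS and JUN, 3 were higher in DRG, 1 was lower and 7 did not pass. Of all tested genes, 27.8% were higher and 28.1% lower. On plain library sizes 3 partners were higher and 6 lower, and their median log2 fold change went from 0.04 to -0.91. The oxidative stress factor gene nfe2l2a was at 94.5 to 102 CPM in DRG and 14.5 to 18.6 CPM in spinal cord (log2 fold change 2.54 ± 0.15 SE, edgeR adjusted p = 8.18e-06). The others were cebpd (1.71) and mafaa (1.74) in DRG, and atf2 (-0.51), a classical partner of c-Jun, in spinal cord; the call of atf2 was lost without spinal cord replicate 1 (adjusted p = 0.0548).

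The list of EGR corepressors and partners had 2 tested genes. The corepressor gene nab1b, whose product binds EGR proteins and limits their activity in mammals, had 3.32, 6.63 and 2.40 CPM in DRG and 2.72, 3.55 and 3.33 CPM in spinal cord, highest again in DRG replicate 2. It did not pass (log2 fold change 0.36, edgeR adjusted p = 0.487), and its direction turned without that library (-0.17) and with library sizes alone (-0.65). The coactivator gene ep300b was lower in DRG (-1.24 ± 0.13 SE, adjusted p = 0.000147).

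**Figure D4:**
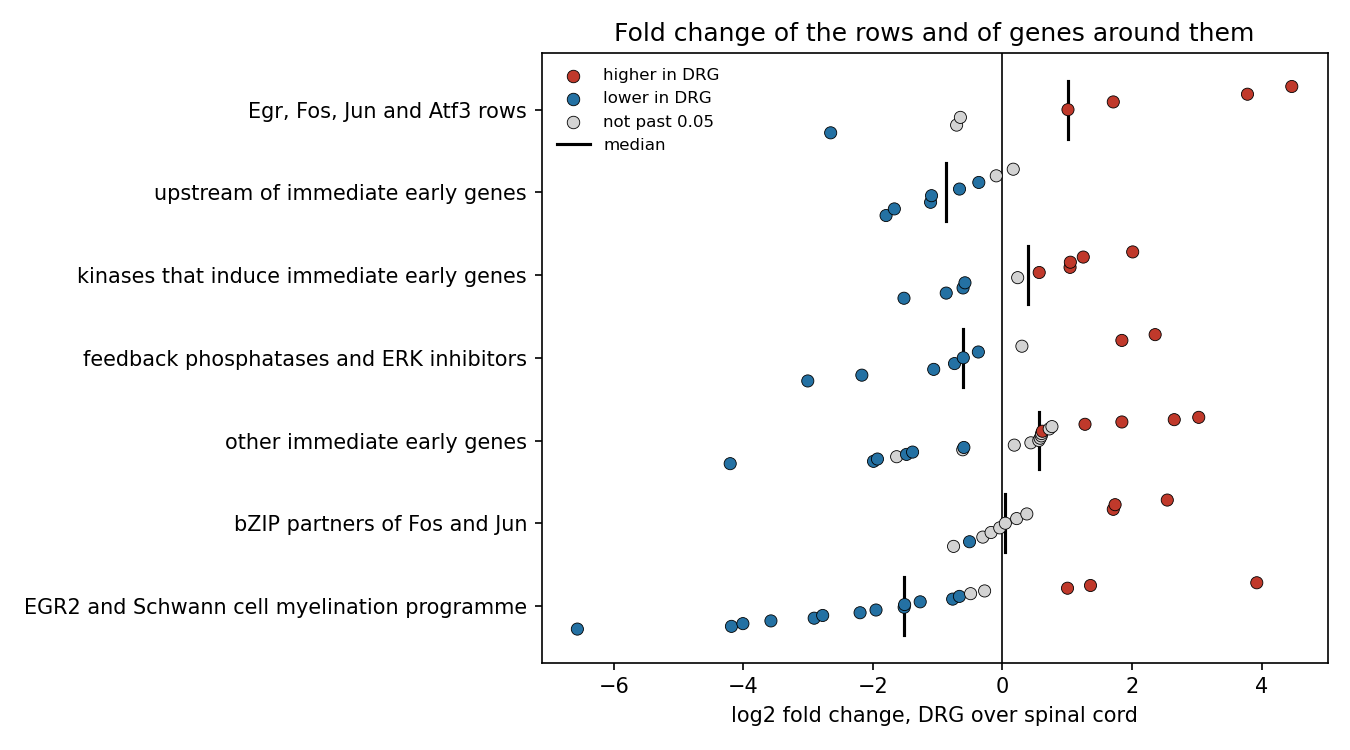
Log2 fold change (DRG over spinal cord) for the 7 genes and for tested genes on 6 lists around them; each point is a gene, coloured by call (adjusted p under 0.05), and the vertical bar is the median. The medians of the 7 genes (1.01) and of the upstream factors (-0.88) lie on opposite sides of 0. In the Egr2 myelination list, which also holds genes of central myelin, 13 of 18 genes are lower in DRG.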

How the data were processed

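The authors deposited raw whole-number counts per gene for 6 libraries. Per the submitters' processing notes, Trimmomatic, HISAT2 2.2.0, SAMtools, featureCounts and edgeR 4.4 were used; the genome build, annotation and strand setting are not given in the sources used here, so no coordinates are printed. Per the labels' protocols, libraries were stranded, polyA-selected and paired-end. All 7 genes matched symbols in a RefSeq table of the assembly Leri_hhj_1, which was used for names and neighbours only; rows without a symbol could not be assigned to these families.

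A total of 24 rows that name no gene (1.02% to 2.04% of counts per library) were left out. After filterByExpr, 16112 genes were tested and 5975 were not (R 4.3.3, glmQLFit and glmQLFTest of edgeR 4.0.16 with TMM factors and no term but tissue). The SE is the log2 fold change divided by the square root of F. The code was tested on simulated data, in which few genes changed and as many rose as fell. Such data do not test the TMM assumption. Exact permutation tests compared ratios, without regard to pool. Figures used matplotlib 3.10.9.

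The labels list the pool number as a batch shared by both tissues, which pairs the libraries. Deviations from the tissue means correlated at 0.48, -0.24 and -0.18 in pools 815, 816 and 818 across genes.

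All genes of the pattern are named. Within each list at most 4 genes per direction could be named: those that passed with the largest change, a mean of 10 CPM or more in 1 tissue and the same direction in all pools; nab1, srf, mpz, pmp22, sox10, etv1, pou3f1 and s100b could be named regardless. Some genes this rule selects are counted in their lists and not reported by name here. The genes and lists were chosen with earlier results of these data known. Alternatives were DESeq2 1.42.0 and its size factors, upper quartile factors, library sizes alone, limma 3.58.1 voom, no filter, at least 10 counts in every library, no mitochondrial genes, the replicate block and leaving out each library. Summed list levels without each gene in turn were added after seeing the data.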

Additional observations from a re-analysis of the deposited data

How the results depend on the processing

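All 7 genes kept their direction in every alternative that could test them, and egr2b, atf3 and junba also kept their calls. The exceptions were jun with library sizes alone (log2 fold change 0.050, adjusted p = 0.864), egr3, which passed with library sizes alone (-1.64), and fosb, which did not pass with the replicate block (-2.69, adjusted p = 0.069). Nor did fosb pass without DRG replicate 3, spinal cord replicate 2 or spinal cord replicate 3 (edgeR adjusted p up to 0.0848). The cause was not tested. The block changed no other call among the 7 genes. With at least 10 counts in every library 3 of the 4 genes still tested passed; atf3, fosb and fosl2 then had too few counts. When 1 library at a time was left out (6 fits), 4 to 6 of the 7 genes passed, and the log2 fold change ranged from -3.44 to -2.14 for fosb and from -1.30 to -0.38 for egr3, which passed only without DRG replicate 2. Of 60 pathway genes 38 passed, with 27 to 39 in these fits (27 without spinal cord replicate 3) and 33 with the block; all genes gave 9002 calls, with 7416 to 9534 in these fits, 10882 with library sizes alone and 8425 with the block. Direction turned in nab1b (-0.65 with library sizes alone, and -0.17 to 0.62 when 1 library was left out, negative without DRG replicate 2) and in rheb (-0.32 with library sizes alone). With Pearson's r, 1 of the 6 most similar genes remained. Depth limits fosb and fosl2, at 0 to 9 counts per DRG library. Nothing in the labels says that a library shares no embryo with another, so p-values measure the spread between these pools.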

Other observations

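Genes next to these genes in the RefSeq assembly did not all share their levels. The atf3 gene lies between batf3 and nenf there. The batf3 level was 1.26, 1.58 and 1.63 CPM in the DRG libraries and 1.30, 1.30 and 0.845 CPM in spinal cord (log2 fold change 0.38, edgeR adjusted p = 0.45). Expression of nenf, which codes for the secreted protein neudesin, was 25.9, 33.0 and 19.3 CPM in DRG and 4.76, 4.09 and 3.56 CPM in spinal cord (log2 fold change 2.66 ± 0.24 SE, edgeR adjusted p = 6.86e-05). Beside egr2b lies adoa, which averaged 52.0 ± 4.06 CPM in DRG against 40.7 ± 3.54 CPM in the cord (SD, n = 3 for both tissues; log2 fold change 0.36, edgeR adjusted p = 0.0506). The table has no gene that overlaps egr2b, egr3, jun, junba, fosb or atf3.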
